A study of Mus musculus with 4 samples.

Results

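The retina is one of the most oxygen-demanding tissues, and its defence against oxidants and free metal ions rests on a small set of enzymes and metal-binding proteins. Here the transcripts of 10 such genes were followed in *rd7* and wild-type mouse retinas: *Hmox1*, *Nqo1*, *Gclc*, *Gclm*, *Sod1*, *Sod2*, *Cat*, *Mt1*, *Mt2* and *Cp*. They were chosen by symbol, as genes of the oxidative stress response, the metallothioneins and ceruloplasmin, and make up 10 of the 22095 loci listed in the deposited table. Each symbol matched 1 row with a successful estimate in all 4 libraries, and all 10 passed the filter on low values (a mean of at least 1 FPKM).

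Of the 4 RNA-seq libraries, 2 came from *rd7* mice, labelled as *Nr2e3* mutants, and 2 from wild-type mice. All 4 were labelled as strain C57BL/6J and as 3 weeks old. Each library was made from a pool of 8 retinas from 2 females and 2 males, so the spread between replicates is a spread between pools and does not show how animals differ. The *rd7* mutation is carried in every cell, and how the *rd7* line was bred is not given in the sources used here. In whole retina, fewer cells of a type and less RNA per cell cannot be told apart.

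As background, the transcription factor NRF2 (encoded by *Nfe2l2*) is held in check by KEAP1 and, when oxidants or electrophiles modify KEAP1, induces a battery that includes *Hmox1*, *Nqo1*, *Gclc* and *Gclm*. Superoxide dismutases turn superoxide into hydrogen peroxide, which catalase breaks down. Metallothioneins are small cysteine-rich proteins that bind zinc and copper and are induced by metals through the factor MTF1, by glucocorticoids and by injury. Ceruloplasmin is a copper-dependent ferroxidase that helps iron leave cells, and both it and the metallothioneins are known in the retina from Müller glia.

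The values are FPKM (fragment numbers divided by transcript length and by the mapped total), a scale on which the levels of genes can be compared. In the wild-type libraries, *Sod1* stood highest at 309 ± 3.76 FPKM (SD, n = 2), followed by *Mt1* at 167 ± 0.749 FPKM (SD, n = 2), *Mt2* at 67.9 ± 3.21 FPKM (SD, n = 2), *Sod2* at 38.2 ± 1.53 FPKM (SD, n = 2) and *Cp* at 21.1 ± 1.18 FPKM (SD, n = 2). *Gclc*, *Cat* and *Gclm* followed with means of 10.6, 7.59 and 6.21 FPKM, and *Hmox1* and *Nqo1* stood lowest with 1.48 and 1.34 FPKM. *Hmox1* and *Nqo1* overlapped in both genotypes, while all other neighbours in this order were apart in the wild-type libraries. In *rd7* retinas the ranges of *Mt1* and *Mt2* over the 2 libraries overlapped as well.

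**Figure D1:**
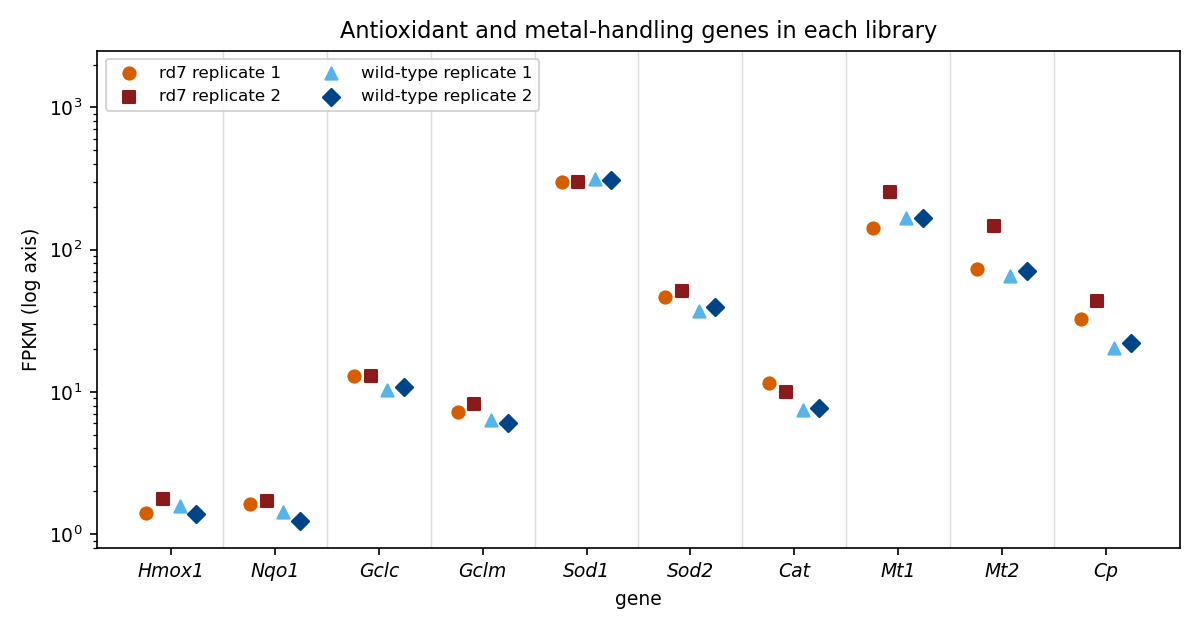
FPKM of the 10 genes (log axis) in each of the 4 libraries, with 1 point per library and no averaging. *Mt1* and *Mt2* are set apart in *rd7* replicate 2 (254 and 147 FPKM), whereas *Sod1* lies between 297 and 311 FPKM in all libraries.

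Differences were tested with limma on log2(FPKM + 0.1) over 12655 genes, with calls made at 5% FDR (false discovery rate), a scale that understates changes of genes with low FPKM. Of the 10 genes, 5 were higher in *rd7* retinas (*Gclc*, *Gclm*, *Sod2*, *Cat* and *Cp*) and 0 were lower, as were 5 and 0 in limma at an unadjusted p under 0.05. The background over all genes was 37.6% higher and 8.80% lower. The median log2 fold change of the 10 genes was 0.29, beside 0.15 for all genes tested. Both *rd7* values lay above both wild-type values in 7 of the 10 genes and below them in 1 (*Sod1*), compared with 57.1% and 19.5% of all genes.

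The shift of the median gene matters for how these differences are read. Median-ratio scaling, which divides a library by its typical ratio to the average library, moved the all-gene median of the log2 fold change from 0.15 to -0.0049, a shift of 0.15. The share of all calls that were higher then went from 81.0% to 50.1%. With this scaling, *Cat* and *Cp* were higher and *Sod1* was lower among the 10 genes (beside 19.7% and 19.6% of all genes), and the median of the 10 was 0.15. Quantile normalization gave 2 of the 10 higher and 0 lower (beside 18.6% and 19.0% of all genes), and an adjustment for base composition and transcript length gave 0 of either (12.4% and 15.0%). *Nr2e3*, the mutated gene, had 2493 and 1589 FPKM in the *rd7* libraries and 385 and 394 FPKM in wild-type, which does not show whether its transcript is intact. Rod markers were abundant in all 4 libraries, with sums of 11036 and 11682 FPKM in *rd7* and 15153 and 15453 FPKM in wild-type retinas. Of the 8 tested, 5 were lower from the deposited FPKM, beside 8.80% of all genes.

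**Figure D2:**
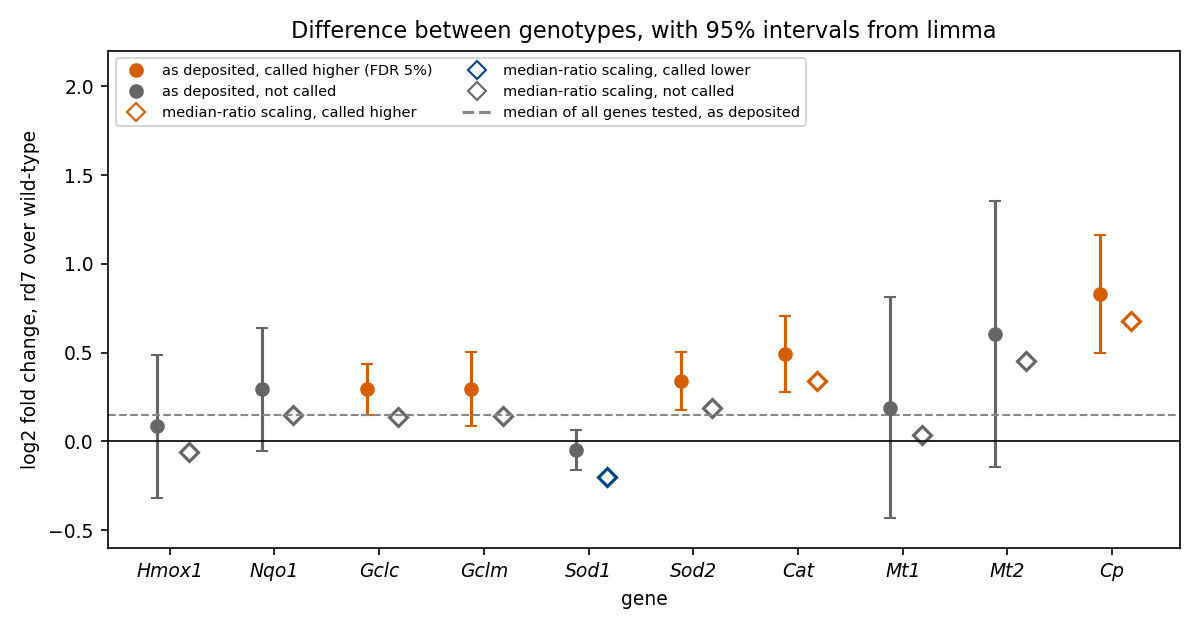
Log2 fold change of *rd7* over wild-type for the 10 genes. Filled points with 95% intervals are the limma estimates from the deposited FPKM, open points those after median-ratio scaling, and the dashed line is the median of all genes tested (0.15); 5 genes are higher as deposited, and *Cat* and *Cp* in both.

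*Hmox1* encodes the inducible haem oxygenase, which breaks haem down to biliverdin, iron and carbon monoxide, and it was scarce in all libraries. It had 1.403 and 1.754 FPKM in *rd7* replicates 1 and 2 and 1.564 and 1.391 FPKM in wild-type replicates 1 and 2. The genotypes overlapped, and the log2 fold change was 0.08 (95% interval -0.32 to 0.48, limma adjusted p = 0.694). About 80 to 98 reads lay behind each value, judged by what 1 read was worth in the scarcest transcripts, so counting error alone reached 11.2% per library. The direction was not stable, with -0.06 after median-ratio scaling.

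*Nqo1*, whose product reduces quinones by 2 electrons, had 1.62 and 1.69 FPKM in the *rd7* libraries and 1.43 and 1.24 FPKM in the wild-type libraries. Both *rd7* values were the higher ones, but the difference of 0.29 on the log2 scale did not pass the test (95% interval -0.06 to 0.64, limma adjusted p = 0.140). The estimated 69 to 92 reads per library again limit the precision. *Nqo1* was called higher in limma only when the variance trend was left out (adjusted p = 0.0480, with a range of 0.0480 to 0.601 over all its refits with 4 libraries).

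Glutathione synthesis starts with glutamate-cysteine ligase, made of the catalytic subunit encoded by *Gclc* and the modifier subunit encoded by *Gclm*. *Gclc* had 13.0 and 13.0 FPKM in the *rd7* libraries and 10.3 and 10.9 FPKM in the wild-type libraries. Both *rd7* values were close to each other and above both wild-type values, with a log2 fold change of 0.29 (SE 0.06, limma adjusted p = 0.0108). *Gclm* had 7.16 and 8.16 FPKM in the *rd7* libraries and 6.39 and 6.04 FPKM in the wild-type libraries. Its log2 fold change was 0.30 (SE 0.08, limma adjusted p = 0.0343), and the genotypes did not overlap. The difference between the subunits' log2 fold changes was small beside either SE. Relative to the median of all genes, the excess was 0.15 for each gene.
Both calls were lost with median-ratio scaling (0.14 for each, adjusted p = 0.0933 and 0.243 from limma) and after adjustment for base composition and transcript length (0.05 and -0.06). They were also lost without either wild-type library, with adjusted p-values from limma between 0.0637 and 0.204, and that of *Gclm* also without *rd7* replicate 2 (0.20, adjusted p = 0.0535). Of the 50-base sequences in the annotated transcripts of *Gclm*, 30.3% occur elsewhere in the genome, so part of its reads cannot be placed uniquely.

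*Sod1* encodes the copper- and zinc-dependent superoxide dismutase of the cytosol and was the most abundant of the 10 transcripts. It had 297 and 301 FPKM in the *rd7* libraries and 311 and 306 FPKM in the wild-type libraries. The *rd7* values were below both wild-type values by a narrow margin, and the log2 fold change of -0.05 was not called (95% interval -0.16 to 0.07, limma adjusted p = 0.429). After median-ratio scaling, *Sod1* was called lower (-0.20, limma adjusted p = 0.0224), and after the composition and length adjustment it was 0.06 and not called. A copy on chromosome 6 shares 22.9% of its 50-base sequences.

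*Sod2*, the manganese-dependent enzyme of mitochondria, had 46.1 and 50.8 FPKM in the *rd7* libraries and 37.1 and 39.3 FPKM in the wild-type libraries. It was higher in both *rd7* libraries, with a log2 fold change of 0.34 (SE 0.07, limma adjusted p = 0.00992). The call was lost with median-ratio scaling (0.19, limma adjusted p = 0.0707), with quantile normalization (0.20), after the composition and length adjustment (0.02), and without wild-type replicate 1 or 2 (0.30 and 0.38, adjusted p = 0.0975 and 0.0512 from limma). Elsewhere in the genome, 24.2% of its 50-base sequences occur again.
*Cat* encodes catalase, the peroxide-degrading enzyme of peroxisomes. It had 11.6 and 9.93 FPKM in the *rd7* libraries and 7.46 and 7.73 FPKM in the wild-type libraries. The log2 fold change was 0.49 (SE 0.09, limma adjusted p = 0.00733), or 1.41-fold, and *rd7* replicate 1 was the higher of the *rd7* pair. *Cat* kept its call with median-ratio scaling (0.34, limma adjusted p = 0.0252) and quantile normalization (0.33), and lost it after the composition and length adjustment (0.29, limma adjusted p = 0.0540) and without wild-type replicate 1 or 2 (adjusted p = 0.0778 and 0.0524 from limma).

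From the deposited FPKM of all 4 libraries, *Cp* showed the largest log2 fold change of the 10 genes. It lies on chromosome 3 of mm9 from 19857054 to 19907609 and had 32.5 and 43.2 FPKM in *rd7* replicates 1 and 2 against 20.2 and 21.9 FPKM in wild-type replicates 1 and 2. Both *rd7* libraries were above both wild-type libraries, and replicate 2 was the higher of them. The log2 fold change was 0.83 (SE 0.13, limma adjusted p = 0.00565), or 1.78-fold, and 0.68 with median-ratio scaling (limma adjusted p = 0.0145). Without *rd7* replicate 2 it was 0.62 and without *rd7* replicate 1 it was 1.03, and *Cp* was called in both cases. The call was lost without wild-type replicate 1 (0.77) and after the composition and length adjustment (0.43, limma adjusted p = 0.0602). In the GENCODE annotation, *Cp* has 16 transcripts with a joint exonic length of 9566 bases. How Cufflinks divided the reads among transcripts was not examined.
Among the 3 genes tested whose profile over the 4 libraries was closest to that of *Cp* were *Kcng4* and *Atf7*, with Euclidean distances of 0.0676 and 0.0914 on the mean-centred log2 scale. The likeness covers 4 libraries and says nothing of shared control.

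*Mt1* and *Mt2* lie next to each other on chromosome 8 of mm9, from 96702989 to 96704225 and from 96696518 to 96697467. Their promoters are shown because both genes were higher in *rd7* replicate 2 than in replicate 1. As this choice came from the values, the motif counts below are a description only. Metal response elements were searched as TGCACNC and TGCGCNC, and antioxidant response elements as TGACNNNGC, on both strands of the 300 bases around each RefSeq start site (250 before and 50 after, GRCm38.p6). Of the 10 genes, 8 matched such a window. The lines give the 250 bases before the start, 5′ to 3′ on the plus strand, from chr8:94178839-94179088 for *Mt1* and chr8:94172368-94172617 for *Mt2*, with metal response element letters in capitals.
*Mt1*: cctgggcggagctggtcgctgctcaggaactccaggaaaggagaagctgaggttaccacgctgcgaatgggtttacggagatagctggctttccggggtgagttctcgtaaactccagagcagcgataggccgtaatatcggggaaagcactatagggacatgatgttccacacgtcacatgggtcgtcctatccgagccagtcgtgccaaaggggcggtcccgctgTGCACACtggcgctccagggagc
*Mt2*: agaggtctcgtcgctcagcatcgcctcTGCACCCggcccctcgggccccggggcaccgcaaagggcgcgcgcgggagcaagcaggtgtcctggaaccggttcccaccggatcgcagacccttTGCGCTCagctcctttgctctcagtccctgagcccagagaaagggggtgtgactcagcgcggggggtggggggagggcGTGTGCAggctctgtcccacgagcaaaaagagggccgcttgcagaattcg
The 300-base window held 3 such matches in *Mt1* and 4 in *Mt2*, of which 1 and 3 lie before the RefSeq start. Which start is used in the retina was not examined, and sequence outside the window was not searched. At least 3 matches occur in 1.97% and at least 4 in 0.517% of the 32851 windows in the table. *Gclm* also held 3, of which that at -138 overlaps its antioxidant element match at -134. Antioxidant element letters occurred once each in *Gclm*, *Sod1* and *Mt2* (at -134, -56 and -79 from the start) and in 12.4% of all windows. No match of either motif was found in the windows of *Nqo1*, *Sod2*, *Cat* and *Cp*, which says only that these letters are absent there.

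The 2 *rd7* libraries differed in the metallothioneins, while the wild-type libraries did not. *Mt1* had 142 FPKM in *rd7* replicate 1 and 254 FPKM in *rd7* replicate 2, against 166 and 167 FPKM in the wild-type libraries. *rd7* replicate 1 was thus the lowest and replicate 2 the highest of the 4, and the log2 fold change over both was 0.19 (95% interval -0.43 to 0.81, limma adjusted p = 0.567).
*Mt2* had 72.6 FPKM in *rd7* replicate 1 and 147 FPKM in *rd7* replicate 2, against 65.6 and 70.2 FPKM in the wild-type libraries. Replicate 1 was just above the wild-type values and replicate 2 was far above them. The log2 fold change was 0.61 (95% interval -0.15 to 1.36, limma adjusted p = 0.153). After the composition and length adjustment it was 0.79, above that of *Cp* (0.43), and not called (limma adjusted p = 0.126).
Whether either gene was called hung on 1 library. Without *rd7* replicate 1, *Mt1* and *Mt2* were both higher (0.61 and 1.11, adjusted p = 2.94e-05 and 5.22e-06 from limma). Without *rd7* replicate 2, *Mt1* was lower (-0.23, limma adjusted p = 0.00204) and *Mt2* was not called (0.10). With a single *rd7* library, these p-values take the wild-type spread as that of *rd7* pools.
Reads do not limit these values, with an estimated 3165 and 5590 reads on *Mt1* and 1429 and 2848 reads on *Mt2* in *rd7* replicates 1 and 2. No 50-base sequence is common to the transcripts of both genes, and matches with mismatches were not counted.

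On the log2 scale, *rd7* replicate 2 exceeded replicate 1 by 0.84 in *Mt1* and by 1.02 in *Mt2*, while the wild-type libraries were 0.01 and 0.10 apart. For all genes tested, the median distance was 0.10 between the *rd7* libraries and 0.06 between the wild-type libraries. An excess in replicate 2 at least as large was found in 72 genes (0.569%) for *Mt1* and in 53 genes (0.419%) for *Mt2*, the gene itself included. Among the 1284 genes with a mean of at least 50 FPKM, the numbers were 4 and 2.
*Cp* followed with an excess of 0.41 and *Hmox1* with 0.30. *Gclm* and *Sod2* differed by 0.19 and 0.14, and *Nqo1*, *Sod1* and *Gclc* by 0.06, 0.02 and -0.01. *Cat* went the other way (-0.22). In all, 8 of the 10 genes were higher in replicate 2, among them all 3 metal genes. The median difference of all genes tested was -0.0082. The gaps of *Nqo1* and *Sod1* were under the median distance of 0.10 between the *rd7* libraries. *rd7* replicate 1 was above both wild-type libraries in 7 genes and replicate 2 in 9, beside 65.9% and 63.9% of all genes. They were below both in 2 genes and 1 gene, beside 25.4% and 27.2%.

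**Figure D3:**
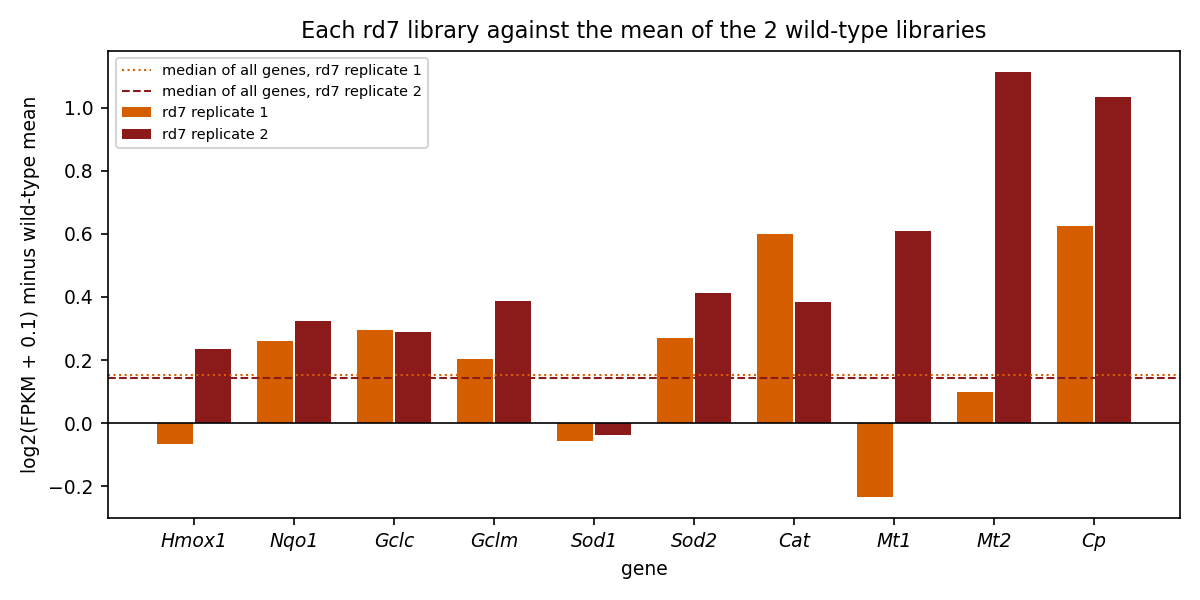
Log2(FPKM + 0.1) of each *rd7* library minus the mean of the 2 wild-type libraries, with 1 bar per *rd7* library. Lines mark the median of all genes for each library (0.15 and 0.14). *Mt1* is at -0.23 and 0.61, *Mt2* at 0.10 and 1.11, and *Gclc* at 0.30 and 0.29.

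Genes linked to the reactivity of Müller glia, some of them also made by other cells, moved in the same direction between the 2 *rd7* libraries. All 9 tested genes of this list were higher in *rd7* replicate 2, by a median of 1.25 on the log2 scale, and the summed level of the list was 41.1 FPKM in *rd7* replicate 1 and 100.1 FPKM in replicate 2, against 32.3 and 33.2 FPKM in the wild-type libraries. *Gfap*, the intermediate filament gene of stressed Müller cells and astrocytes, had 10.3 and 28.1 FPKM in the *rd7* libraries against 7.59 and 8.14 FPKM. *Edn2*, an endothelin that injured photoreceptors release, had 0.874 and 9.001 FPKM against 1.18 and 1.34 FPKM. *Stat3*, a mediator of gp130 cytokine signals, had 18.6 and 32.8 FPKM against 13.0 and 13.3 FPKM. Over both *rd7* libraries, 3 of the 9 genes were called higher and 0 lower, beside 37.6% and 8.80% of all genes. In limma at an unadjusted p under 0.05 there were 4 and 0. The median log2 fold change of the list was 1.52 without *rd7* replicate 1 and 0.26 without *rd7* replicate 2. Fewer of its genes were called without either wild-type library. The part of reactive Müller glia in the metallothionein values was not tested.

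The general Müller cell list did not show this gap. Its 12 genes differed between the *rd7* libraries by a median of 0.02, and their sum was 2954 and 2996 FPKM in *rd7* against 2403 and 2471 FPKM in wild-type retinas. Over both *rd7* libraries 7 of the 12 were higher and 0 lower, beside 37.6% and 8.80% of all genes. In limma at an unadjusted p under 0.05 there were 8 and 0. Among the higher ones were *Slc1a3* (log2 fold change 0.64) and *Aqp4* (0.67). Median-ratio scaling gave 6 higher and 1 lower, beside 19.7% and 19.6% of all genes.
Microglia and macrophage markers were also higher in *rd7* replicate 2, in 9 of 9 genes tested and by a median of 0.53, with sums of 31.1 and 42.3 FPKM in *rd7* and 28.5 and 29.1 FPKM in wild-type retinas. *Ptprc*, which marks white blood cells, had between 0.0946 and 0.171 FPKM. It lay under the filter on low values and was not tested. The 10 endothelial and pericyte genes tested went the other way (median -0.53). Astrocyte markers were higher in *rd7* replicate 2 in 4 of 5 genes tested, by a median of 0.31. Their sums were 28.8 and 48.3 FPKM in *rd7* and 22.1 and 24.1 FPKM in wild-type retinas. Over both *rd7* libraries 3 of the 5 were higher and 0 lower, beside 37.6% and 8.80% of all genes. Median-ratio scaling gave 1 and 0, beside 19.7% and 19.6%.
Lens markers summed to 22.7 and 46.2 FPKM in *rd7* and to 36.8 and 80.1 FPKM in wild-type retinas, and those of blood to 73.5 and 151 FPKM and to 248 and 287 FPKM. Both lists were thus higher in *rd7* replicate 2 than in replicate 1, as were the metallothioneins. The sums of both lists were highest in wild-type replicate 2. Pigment epithelium markers summed to 85.9 and 75.0 FPKM in *rd7* against 49.9 and 35.5 FPKM in wild-type retinas. Both *rd7* values likewise lay above both wild-type values in 7 of the 10 genes and in 57.1% of all genes. Of the 7 pigment epithelium genes tested, 6 were higher and 0 lower, beside 37.6% and 8.80% of all genes. Their median log2 fold change was 1.09. Median-ratio scaling gave 4 higher and 0 lower, beside 19.7% and 19.6% of all genes. In both genotypes the sum of these markers was lower in replicate 2. Between the *rd7* libraries the median difference of the 7 tested was -0.13, and 2 of them were higher in replicate 2. The part of none of these cell types in the 10 genes was tested.

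**Figure D4:**
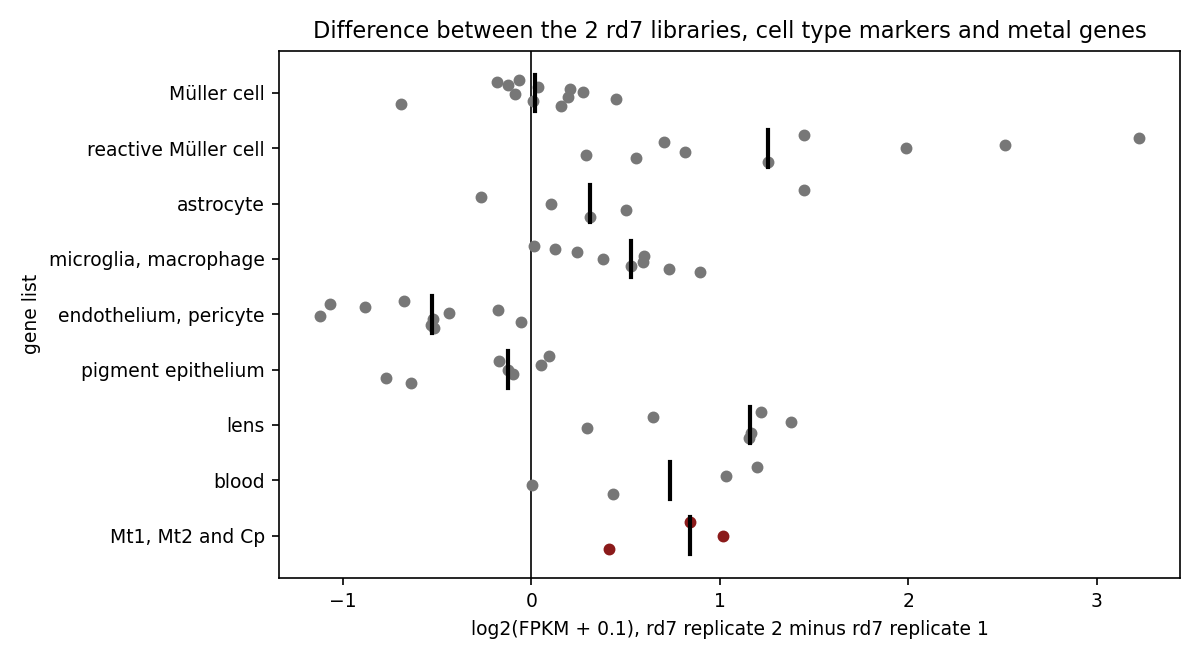
Difference between the 2 *rd7* libraries in log2(FPKM + 0.1) for each tested gene (points) of 8 marker lists and of *Mt1*, *Mt2* and *Cp*, with list medians as black bars. The reactive Müller cell list (median 1.25) lies on the positive side as do the metal genes (median 0.84), and the general Müller cell list is centred near 0 (median 0.02).

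The rest of the antioxidant pathway was read from 4 lists of 100 symbols, all listed and 81 tested. At an FDR of 5%, 23 were higher (28.4%) and 5 were lower (6.17%), both below the shares of all genes, with a median log2 fold change of 0.12. With median-ratio scaling 11 were higher and 14 lower, beside 19.7% and 19.6% of all genes. The median was 0.12 without wild-type replicate 1 and 0.13 without wild-type replicate 2, and fewer genes were called in both cases. Without *rd7* replicate 2, 9 were lower. The factors that govern the NRF2 battery held 4 of 9 genes higher and 0 lower, beside 37.6% and 8.80% of all genes. In limma at an unadjusted p under 0.05 there were 5 and 0. Median-ratio scaling gave 3 higher and 1 lower, beside 19.7% and 19.6% of all genes. *Nfe2l2* itself had 10.6 and 10.3 FPKM in *rd7* and 8.25 and 7.43 FPKM in wild-type retinas (log2 fold change 0.42, limma adjusted p = 0.00702). *Bach1*, a repressor that competes at the same elements, rose by 0.57 and its relative *Bach2* by 1.51 on the log2 scale. *Keap1* was at 20.4 and 20.8 FPKM against 18.9 and 18.9 FPKM and was not called (0.13). After adjustment for composition and length, the calls of *Nfe2l2* (0.12, limma adjusted p = 0.303) and *Bach1* (0.27, limma adjusted p = 0.0979) were lost. Without wild-type replicate 2 both were lost as well (0.34 and 0.58, limma adjusted p = 0.0696 and 0.0571), and without wild-type replicate 1 that of *Bach1* (0.56, limma adjusted p = 0.0749).

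Of the 31 glutathione genes tested, 3 were higher and 2 lower, beside 37.6% and 8.80% of all genes. The largest rises were those of the transferase gene *Gstm4* (1.02) and of *Gpx7* (0.58), the latter lost with median-ratio scaling (0.43) and after the composition and length adjustment (limma adjusted p = 0.0520). *Gpx4*, which detoxifies lipid peroxides and is abundant in photoreceptors, had 389 and 393 FPKM in *rd7* and 506 and 502 FPKM in wild-type retinas and fell by 0.37 on the log2 scale (limma adjusted p = 0.00287). *Gss*, the second enzyme of glutathione synthesis, had 6.57 and 7.51 FPKM against 8.76 and 8.39 FPKM and was lower (-0.28, limma adjusted p = 0.0359), the opposite direction to *Gclc* and *Gclm*. *Gsr*, which recycles oxidized glutathione, was at 10.5 and 9.33 FPKM against 8.39 and 8.47 FPKM and was not called (0.23, limma adjusted p = 0.0501), though it was with a pseudocount of 0.01 (0.0496), a mean of at least 5 FPKM (0.0423) or without *rd7* replicate 2 (0.31, limma adjusted p = 0.00501). The calls of *Gpx7*, *Gpx4* and *Gss* were lost without either wild-type library (limma adjusted p from 0.0542 to 0.227), and those of *Gpx7* (0.33) and *Gss* (-0.19) also without *rd7* replicate 1.
Of the 23 thioredoxin and peroxiredoxin genes, 9 were higher and 2 lower, beside 37.6% and 8.80% of all genes. The rises were led by *Sesn3* (0.82) and the mitochondrial peroxiredoxin gene *Prdx3* (0.36, and 0.16 with its call lost after the composition and length adjustment). The 2 lower ones were *Nxnl1* (-0.41) and *Nxnl2* (-0.37), which encode the rod-derived cone viability factors, and *Nxnl1* had 91.7 and 89.5 FPKM in *rd7* against 122 and 118 FPKM. Without wild-type replicate 1 the call of *Nxnl2* was lost (limma adjusted p = 0.0515). Rod genes moved with them, with 5 of 8 tested markers lower as given above, and the part of rods was not tested.
Of the 18 further oxidant and haem genes tested, 7 were higher and 1 lower, beside 37.6% and 8.80% of all genes. *Akr1b8* (1.29) and *Ephx1* (0.63) led the rises, and *Me1* (-0.37), a source of NADPH, was lower. Without wild-type replicate 1 the calls of *Akr1b8* (1.06, limma adjusted p = 0.0607) and *Me1* (limma adjusted p = 0.105) were lost, and without wild-type replicate 2 that of *Me1* (0.101). The 5 relatives and partners of *Hmox1* and *Sod1* named next were not called. The constitutive haem oxygenase gene *Hmox2* had 29.3 and 29.8 FPKM against 27.4 and 27.0 FPKM, far above *Hmox1*. The copper chaperone gene of SOD1, *Ccs*, differed by 0.07, extracellular *Sod3* by -0.12, and the biliverdin reductase genes *Blvra* and *Blvrb* by -0.03 and -0.09 on the log2 scale.

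**Figure D5:**
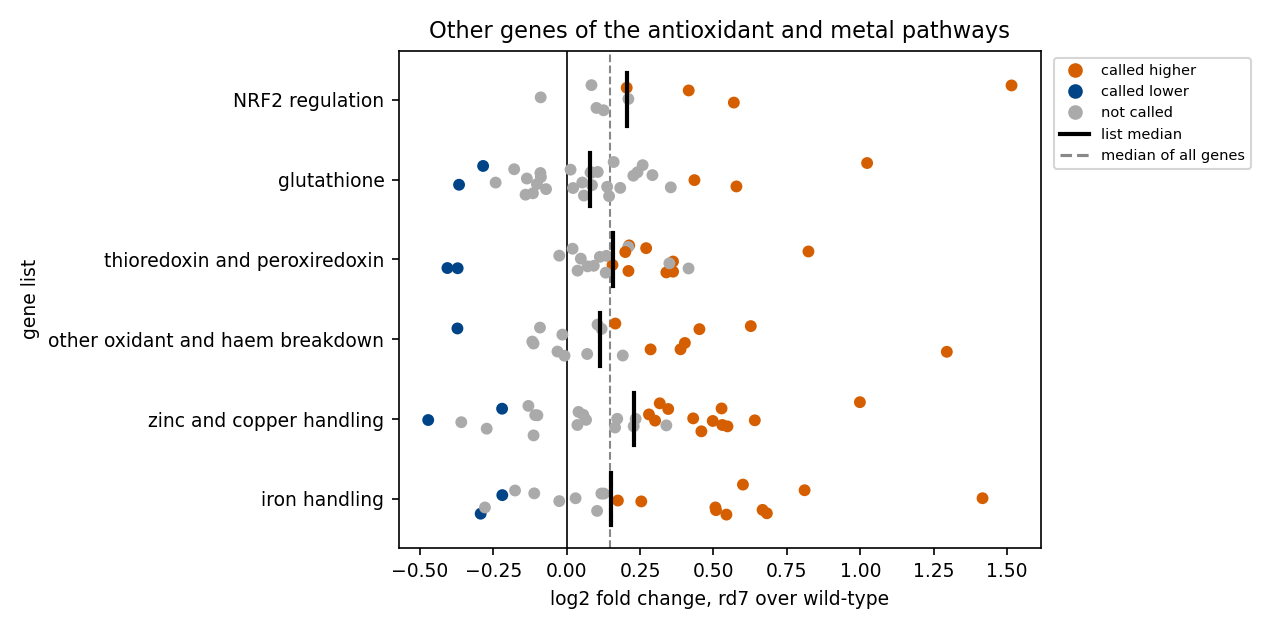
Log2 fold change of *rd7* over wild-type for each tested gene of the 6 wider lists (points, coloured by the limma call at an FDR of 5%), with list medians as black bars and the median of all genes as a dashed line (0.15). List medians lie between 0.08 and 0.23, and *Bach2*, *Akr1b8* and *Trf* lie farthest to the right.

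Genes of metal transport and storage were read from 2 lists of 67 symbols, of which 66 were listed and 49 tested. Of these, 22 were higher (44.9%) and 4 lower (8.16%), beside 37.6% and 8.80% of all genes, with a median of 0.17. With median-ratio scaling 14 were higher and 9 lower, beside 19.7% and 19.6% of all genes. The median was 0.18 without wild-type replicate 1 and 0.18 without wild-type replicate 2, and fewer genes were called in both cases. Without *rd7* replicate 2, 8 were lower. Among the zinc and copper genes, 12 of 29 were higher and 2 lower. The copper importer gene *Slc31a1* had 24.1 and 19.5 FPKM in *rd7* and 10.6 and 11.0 FPKM in wild-type retinas (1.00, limma adjusted p = 0.00182), and the copper pump gene *Atp7a*, which loads copper into secreted enzymes, rose by 0.64. *Slc31a2* (-0.47) and the mitochondrial copper chaperone gene *Cox17* (-0.22) were lower. *Atp7a* lost its call after the composition and length adjustment (0.26, limma adjusted p = 0.0580) and without wild-type replicate 1 (0.60, limma adjusted p = 0.0503). *Slc31a2* and *Cox17* lost theirs without either wild-type library (limma adjusted p from 0.0685 to 0.156), while *Cox17* was at -0.54 after the composition and length adjustment.
The metallothionein gene of neurons, *Mt3*, had 54.8 and 51.8 FPKM in the *rd7* libraries and 52.2 and 51.4 FPKM in the wild-type libraries, a difference of 0.04 on the log2 scale (limma adjusted p = 0.545) that was -0.11 with median-ratio scaling and was called higher after the composition and length adjustment (0.27, limma adjusted p = 0.0101). *Mtf1*, the metal-sensing factor, was at 7.09 and 7.24 FPKM against 6.42 and 6.28 FPKM and was not called (0.17, limma adjusted p = 0.0673).

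Of the 20 iron genes tested, 10 were higher and 2 lower, beside 37.6% and 8.80% of all genes. *Heph*, the membrane-bound relative of *Cp* with the same ferroxidase activity, had 2.33 and 2.31 FPKM in *rd7* and 1.38 and 1.44 FPKM in wild-type retinas (0.68, limma adjusted p = 0.00649). The iron exporter gene *Slc40a1*, with which both work, had 1.95 and 1.45 FPKM against 1.06 and 1.09 FPKM (0.60, limma adjusted p = 0.0407), and its call was lost with median-ratio scaling (0.46), with a replicate block (limma adjusted p = 0.0512), after the composition and length adjustment (0.29), without *rd7* replicate 1 (0.40, limma adjusted p = 0.0804) and without either wild-type library (0.59 and 0.61). *Heph* lost its call after the same adjustment (0.31, limma adjusted p = 0.0956) and without wild-type replicate 1 (0.65, limma adjusted p = 0.0648). *Trf*, the gene of the iron carrier transferrin, had 56.2 and 84.6 FPKM against 29.3 and 22.7 FPKM and was higher (1.42, limma adjusted p = 0.00442), with *rd7* replicate 2 above replicate 1 as in *Cp*. *Ncoa4*, the receptor that takes ferritin to lysosomes, rose by 0.81 on the log2 scale, and by 0.50 after the composition and length adjustment.
Ferritin heavy chain, *Fth1*, had 385 and 414 FPKM against 450 and 480 FPKM and was lower (-0.22, limma adjusted p = 0.0322). *Ftl1* (0.13) and the transferrin receptor gene *Tfrc* (0.12) were not called, and *Slc25a28*, a mitochondrial iron importer gene, was lower (-0.29). Without *rd7* replicate 2, *Ftl1* (0.17) and *Tfrc* (0.15) were called higher, and after the composition and length adjustment *Tfrc* was lower (-0.27, limma adjusted p = 0.0128) and *Fth1* lost its call (-0.20). Without either wild-type library the calls of *Fth1* and *Slc25a28* were lost (limma adjusted p from 0.0623 to 0.271).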

How the data were processed

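Retinal poly(A) RNA of 4 libraries (2 *rd7*, 2 wild-type) was analysed. Reads (single, 50 bp) were aligned to mm9 by the authors using TopHat 1.4.1, who deposited FPKM per gene and library, computed with Cufflinks 1.3.0 and normalized to transcript length and mapped fragments, with a status for each estimate. Their deposited Cuffdiff table (pooled values, fold changes, test statistics) was not used. Loci whose estimate was not successful in all libraries (262) were left out, and log2(FPKM + 0.1) was compared for genes averaging 1 FPKM or more by limma (version 3.58.1, R 4.3.3, trended eBayes, two-sided, Benjamini-Hochberg adjustment over 12655 genes, FDR of 5%), without scaling or a block. The step was tested on simulated data. With 1 library of a genotype left out, the remaining one is assumed to vary like the others. An exact test of 1 gene in 2 against 2 libraries cannot pass the threshold and was not used.

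The 10 genes and all lists were chosen with earlier results of these data known. Lists are described by counts and medians. Named were the 10 genes, listed direct relatives and partners, in each wider list the 2 largest rises and falls called without overlap, markers where their list is described, and the 3 profiles closest to the gene with the largest rise. Of these 3 profiles, 1 is not reported here. A gene with the largest fall was not available, as no member was called lower.

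Depth was inferred from the smallest values of single-transcript genes over 800 bases long (0.02 to 0.036 FPKM times kilobase), giving between 3.49e+07 and 3.56e+07 reads per library. Estimated reads use the longest annotated transcript, and counting errors cover counting only. Exonic length, GC content and 50-base sequences were taken from GENCODE and the mm9 genome in Python 3.11.15, promoters from RefSeq tables of GRCm38.p6. Alternatives were pseudocounts of 1 and 0.01, no filter and a mean of at least 5 FPKM, median-ratio scaling, quantile normalization, no variance trend, a replicate block, an FDR of 1%, each library left out, and an adjustment for base composition (GC) and exonic length by splines. Replicate numbers do not pair the libraries (r = -0.0265 between the deviations of the libraries numbered 1).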

Additional observations from a re-analysis of the deposited data

How the results depend on the processing

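With 2 pools per genotype, calls rest on few degrees of freedom, and the count of genes called moved with scaling, filter and threshold, as did those of the 10 genes. Both pseudocounts, a mean of at least 5 FPKM and no variance trend kept the counts of all genes, of the 10 genes and of the pooled antioxidant and metal genes within 1.5 times. Counts of single lists moved further. With a mean of at least 5 FPKM, fewer genes were tested. Of the 14 iron genes left 6 were higher, beside 10 of 20 in the main fit. Of the 2 reactive Müller genes left 1 was higher, beside 3 of 9. Without a trend 1 glutathione and 1 iron gene were lower. With scarce genes kept, the calls of *Nfe2l2*, *Bach1*, *Gpx7*, *Gpx4*, *Gss*, *Akr1b8*, *Me1*, *Slc31a1*, *Slc31a2*, *Cox17*, *Slc40a1*, *Trf* and *Fth1* were lost, and without a trend those of *Gpx7*, *Gss* and *Fth1*. The cause was not tested for the changes below, except that an FDR of 1% is a stricter threshold.

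Over all genes, limma called higher and lower 2249 and 455 when scarce genes were kept, 2492 and 2479 after median-ratio scaling, 2350 and 2404 after quantile normalization, 2582 and 446 at an FDR of 1%, and 1524 and 1839 after adjustment for base composition and transcript length. Of the 10 genes, 1 was higher with scarce genes kept (*Gclc*), 2 with median-ratio scaling or quantile normalization (*Cat* and *Cp*), 3 at an FDR of 1% (*Sod2*, *Cat* and *Cp*) and 0 after the composition and length adjustment (2 at an unadjusted p under 0.05 in limma), and 1 (*Sod1*) was lower with median-ratio scaling. Of the other antioxidant genes, 8, 11, 11, 12 and 8 were higher under these 5 settings in the same order, and 3, 14, 13 and 3 were lower under the first 4. Of the other metal genes, 10, 14 and 14 were higher under the first 3 and 8 after the composition and length adjustment, and 1, 9, 8, 2 and 9 were lower under the 5.

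Leaving out 1 library at a time gave between 1293 and 5484 genes higher and between 224 and 1601 lower, of the 10 genes 0 to 7 higher and 0 to 1 lower, of the other antioxidant genes 7 to 29 higher and 1 to 9 lower, and of the other metal genes 8 to 25 higher and 0 to 8 lower. The lowest counts of all genes and of the 10 genes came without wild-type replicate 1, where 5 of the 10 genes were higher at an unadjusted p under 0.05 in limma.

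A replicate block gave 4508 genes higher and 1091 lower and changed the call of none of the 10 genes, with 5 higher and 0 lower. The block gave 22 higher and 5 lower of the other antioxidant genes and 20 and 4 of the other metal genes.

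Directions turned as follows. With median-ratio scaling, the log2 fold changes were -0.061 for *Hmox1*, -0.084 for *Ccs*, -0.035 for *Hmox2*, -0.028 for *Keap1*, -0.11 for *Mt3*, -0.027 for *Ftl1* and -0.036 for *Tfrc*. With quantile normalization they were -0.10 for *Hmox1*, -0.061 for *Ccs*, -0.0076 for *Hmox2*, -0.025 for *Keap1*, -0.092 for *Mt3*, -0.0075 for *Mtf1* and -0.0085 for *Tfrc*. The composition and length adjustment gave -0.057 for *Gclm*, 0.060 for *Sod1*, -0.052 for *Mtf1* and -0.27 for *Tfrc*. Leaving out 1 library gave -0.068 to 0.24 for *Hmox1*, -0.23 to 0.61 for *Mt1*, -0.36 to 0.12 for *Sod3*, -0.16 to 0.096 for *Blvra*, -0.28 to 0.097 for *Blvrb* and -0.00065 to 0.081 for *Mt3*. Of the turned values, those of *Mt1* (without *rd7* replicate 2) and *Tfrc* were called.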
